A study of Mus musculus with 3 samples.

Results

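The tetraspanins described here are 10 genes that lymphocytes are known to express or to share with other blood cells, out of 55536 mouse genes measured. They are Cd9, Cd37, Cd53, Cd63, Cd81, Cd82, Cd151, Tspan13, Tspan31 and Tspan32. They were chosen by name, with earlier results of these data known, and all 10 were found in the gene table by their symbol. The RNA came from regulatory T cells, the CD4 T cells defined by the transcription factor Foxp3, described in the labels as male, adult and of 4 months. The labels trace the cells to bone marrow hematopoietic cells, and how they were sorted is not stated in them. The strain is given as Foxp3CreERT2 x Rosa26YFP, which joins a tamoxifen-inducible Cre recombinase at the Foxp3 gene with a YFP reporter at the Rosa26 locus. Polyadenylated RNA was sequenced in 3 libraries, labelled as technical replicates 1, 2 and 3 of 1 biological replicate, and they form 1 group. The labels give them the same biosample and donor record, but no source used here says whether a single RNA pool, several sorts or more than 1 animal lay behind them. No condition is compared, and every spread or p-value below describes these libraries only.

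Tetraspanins are small membrane proteins that cross the membrane several times and hold a short and a long loop outside the cell. They bind integrins, immunoreceptors, proteases and one another, and so gather these partners into patches of the membrane. In lymphocytes Cd37, Cd53, Cd81 and Cd82 are known from adhesion, antigen receptor signalling and proliferation, while Cd63 is known from late endosomes and exosomes.

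The mouse genes show the family in their coding sequence. The long outer loop carries the signature Cys-Cys-Gly, which is printed below because it is what the 10 genes share. Each line gives 30 coding bases from the most abundant protein-coding transcript of the gene in the GENCODE M21 annotation (mouse build mm10), and the capitals mark the 3 codons of the signature.

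Cd53-201: acacaactgcagTGTTGTGGTgtaaatggc
Cd37-202: ttccagctgcgcTGCTGCGGCtggcaatct
Cd82-201: gcgcaggtcaagTGCTGTGGCtgggtcagc
Tspan32-203: gacacgtttctgTGTTGTGGGaagaaatct
Cd81-201: gagacgctcaacTGTTGTGGCtccaacgca
Cd9-201: atggcgttggacTGCTGTGGCatagctggt
Cd151-202: caagagttccacTGTTGTGGCagcaacaac
Cd63-202: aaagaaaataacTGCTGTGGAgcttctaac
Tspan13-201: aggaatttgaacTGCTGTGGCttccggagc
Tspan31-201: agaagttttgacTGCTGTGGCttgttcaac

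All 10 genes carried the signature after codon 100, at codons 128 to 156 of the coding sequence. Cd9, Cd63 and Cd81 each hold Cys-Cys-Gly a further time elsewhere. Over the longest complete coding sequence of each gene, 31 of 31 tetraspanin genes encode it, against 2.60% of 21778 mouse genes. In 8 of the 10 genes an exon junction lies 6 bases before the signature, so that the printed stretch joins 2 exons after its first 6 bases. Tspan13 and Tspan31 have no junction within the printed stretch. Of the other 21 tetraspanin genes, 18 have a junction at the same 6 bases. Tspan13 and Tspan31 are also the pair with the most similar proteins, at 58.4% identical residues of those aligned, followed by Cd9 and Cd81 at 46.9%. The 45 pairs had a median of 31.3% and ranged down to 20.8%.

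Depth was similar in the libraries, with 9299054, 9188612 and 8284381 expected counts over mouse genes in libraries 1, 2 and 3. The label regulatory T cell was checked against marker genes. All 9 listed regulatory T cell genes and all 9 listed T cell genes reached 1 TPM in every library, where TPM is the count of transcripts scaled by length and to a fixed total, with Foxp3 at 27.6, 43.7 and 47.1 TPM. Markers of other cells were also present and moved between libraries. The 10 B cell genes were all detected and summed to 179, 143 and 243 TPM in libraries 1, 2 and 3, with Cd79b as the highest. The 8 erythroid genes summed to 1685, 9.13 and 1497 TPM, and the 7 plasma cell genes to 2019, 261 and 1439 TPM. Of the 7 platelet genes none was detected, with sums of 0.83, 1.53 and 2.63 TPM and Gp5 and Gp1bb at 0. The 7 neutrophil genes summed to 45.7, 0.6 and 4.09 TPM, and Elane was at 0. Of the 8 monocyte and macrophage genes 4 were detected, with sums of 25.5, 19.1 and 41.1 TPM and Lyz2 as the highest. Of 6 natural killer cell genes 2 were detected, with sums of 8.96, 9.02 and 18.8 TPM. Of 6 dendritic cell genes 1 was detected, with sums of 2.96, 3.85 and 5.3 TPM. The part of these other cells in the tetraspanin levels was not tested, and in bulk RNA fewer cells of a type cannot be told apart from less RNA per cell.

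Most of the 10 genes, chosen with earlier results of these data known, were abundant. At a limit of 1 TPM in every library, 9 of 10 were detected, against 45.9% of 22028 protein-coding genes, and their median log2(TPM + 1) was 7.71, against 0.78 for all protein-coding genes. Together the 10 genes summed to 3324, 3347 and 3044 TPM in libraries 1, 2 and 3. The levels fell into a wide order, from Cd53 at 838 TPM on average down to Cd63 at 0.657 TPM.

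**Figure D1:**
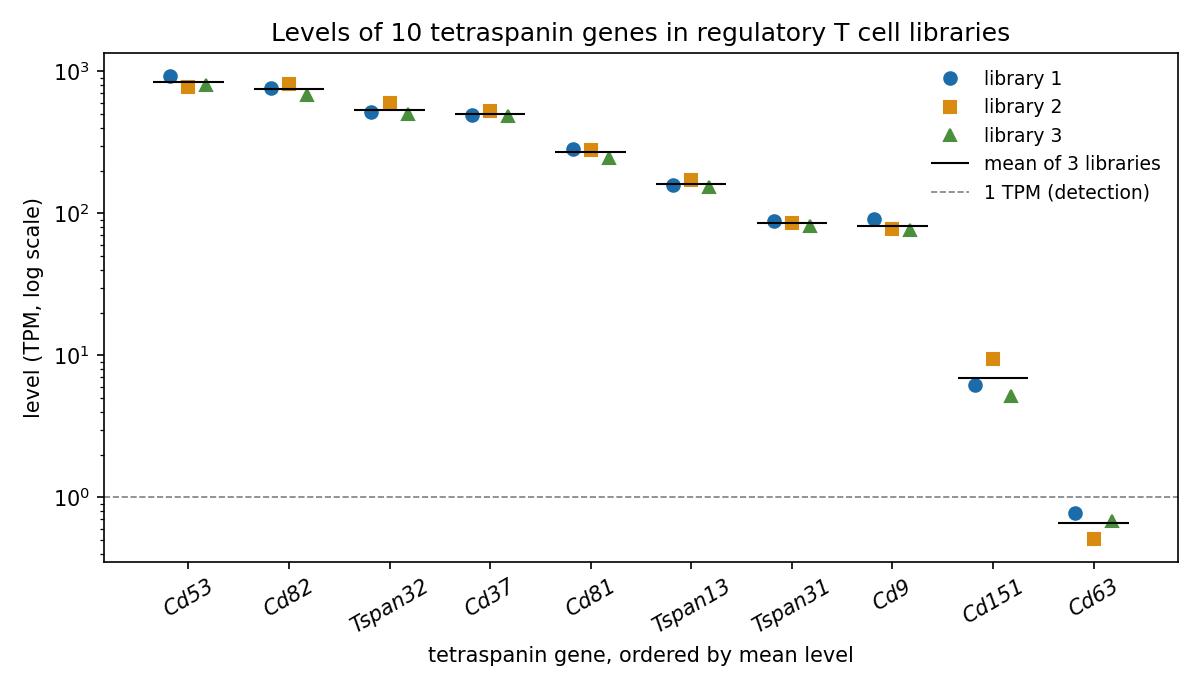
Level of each of the 10 genes in TPM on a log axis, with 1 point for each library, a black line at the mean of the 3 libraries and a dashed line at 1 TPM. Cd53 to Cd9, 8 genes, lie between 76.3 and 927 TPM in every library, Cd151 lies between 5.16 and 9.46 TPM, and the points of Cd63 are all under the dashed line.

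Cd53 and Cd37 are tetraspanins largely restricted to leukocytes. Cd53 (ENSMUSG00000040747.9, chromosome 3, 106759921 to 106790149, minus strand) stood at 927, 776 and 809 TPM in libraries 1, 2 and 3, which rest on 11734, 8361 and 7872 counts. Its mean of 838 ± 79.4 TPM (SD, n = 3) was the 146th highest of 10120 detected protein-coding genes. Cd37 (ENSMUSG00000030798.15, chromosome 7, 45233632 to 45239115, minus strand), which restrains T cell proliferation in mice, had 489.8, 526 and 485 TPM, a mean of 500.0 ± 22.3 (SD, n = 3). Library 2 was the highest for Cd37 and the lowest for Cd53.

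Cd82, named KAI1 in studies of tumour metastasis, came close to Cd53. Cd82 (ENSMUSG00000027215.13, chromosome 2, 93419111 to 93463140, minus strand) had 760.2, 823 and 684 TPM in libraries 1, 2 and 3, a mean of 756 ± 69.3 (SD, n = 3). The ranges of Cd53 and Cd82 overlapped, and Cd53 was the higher of the pair in 2 of 3 libraries, so their order is not separated from the spread. Tspan32 (ENSMUSG00000000244.17, chromosome 7, 143005046 to 143019644, plus strand), a tetraspanin of blood cells also called Tssc6 whose loss raises T cell proliferation in mice, had 518, 596 and 501 TPM. Its mean of 538 ± 50.4 TPM (SD, n = 3) lay under every library of Cd82. Tspan32 was above Cd37 in 3 of 3 libraries, while the ranges of the pair overlapped.

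Cd81, a tetraspanin known from adhesion and antigen receptor signalling, stood between Cd37 and Tspan13. Cd81 (ENSMUSG00000037706.17, chromosome 7, 143052739 to 143067934, plus strand) had 284, 279.8 and 247 TPM in libraries 1, 2 and 3, a mean of 270.2 ± 20.2 (SD, n = 3). Cd9, its closest relative among the 10 and a partner of integrins and of the EWI proteins, was lower. Cd9 (ENSMUSG00000030342.8, chromosome 6, 125460266 to 125494791, minus strand) had 91.7, 77.8 and 76.3 TPM, a mean of 81.9 ± 8.49 (SD, n = 3).

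Tspan13 and Tspan31 are less studied in lymphocytes. Tspan13 (ENSMUSG00000020577.17, chromosome 12, 36014557 to 36042500, minus strand) had 158, 173 and 153 TPM in libraries 1, 2 and 3, a mean of 161 ± 10.2 (SD, n = 3). Tspan31 (ENSMUSG00000006736.9, chromosome 10, 127067280 to 127070264, minus strand), known in human as a gene amplified together with CDK4 in sarcomas, had 88.1, 86.1 and 82.2 TPM, a mean of 85.4 ± 3.00 (SD, n = 3). The ranges of Tspan31 and Cd9 overlapped, while Tspan13 was above both in every library. In the mouse Tspan31 overlaps Cdk4, the cyclin-dependent kinase gene on the opposite strand, over 641 bases, and Cdk4 had 242 ± 28.7 TPM (SD, n = 3). No source used here says whether reads were counted by strand, so reads in those bases cannot be assigned to one gene with certainty. Genes overlapping Cd9, Cd37, Cd81, Cd82, Cd151 and Tspan32 on the opposite strand had mean levels of 0.02 to 2.94 TPM.

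Cd151, the partner of laminin-binding integrins, and Cd63 were at the low end. Cd151 (ENSMUSG00000025510.14, chromosome 7, 141467392 to 141471473, plus strand) had 6.18, 9.46 and 5.16 TPM in libraries 1, 2 and 3, which rest on 53, 44 and 37 counts. The library with the highest TPM was therefore not the one with the most counts, and the mean of 6.93 ± 2.25 TPM (SD, n = 3) is 11.8-fold under that of Cd9. Cd63 (ENSMUSG00000025351.14, chromosome 10, 128900989 to 128912822, plus strand) had 0.78, 0.51 and 0.68 TPM, which rest on 5.46, 3.48 and 3.59 expected counts. In CPM, counts scaled to the library total, Cd63 had 0.587, 0.379 and 0.433, and a count of 0 allows up to 0.323, 0.326 and 0.362 CPM in these libraries (3 counts of the total, counting error only). The processed pseudogene Cd63-ps had 4.54, 3.52 and 6.41 expected counts, as many as Cd63 itself, and reads shared by the pair cannot be told apart. Other values for Cd63 were higher or lower. The posterior mean TPM of the same table was 1.67, 1.45 and 1.65 in libraries 1, 2 and 3, all above the 1 TPM limit. The second transcript table gave 17.3, 11.8 and 16.4 estimated counts, and the gene table on the older M4 annotation gave 15, 5 and 10 counts. In TPM the second transcript table was lower than the main one, at 0.633, 0.377 and 0.627, all under the 1 TPM limit. The level of Cd63 is therefore uncertain beyond being low, and its detection depends on the estimate used.

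Within the family the 10 genes, chosen with earlier results of these data known, held most of the RNA. They took 97.0%, 96.3% and 95.7% of the TPM of all 31 listed tetraspanin genes in libraries 1, 2 and 3, and the top 4 of them (Cd53, Cd82, Tspan32 and Cd37) took 78.3% ± 0.364 (SD, n = 3). Of the other 21 tetraspanin genes 7 were detected and 4 (Tspan10, Tspan11, Tspan12 and Tspan33) were at 0 in all libraries. Tspan14, a partner of the metalloprotease Adam10, was the highest of these at 57.4, 69.8 and 84.5 TPM, below Cd9 in 2 of 3 libraries. Tspan3 followed at 29.0, 38.9 and 29.7 TPM. Rom1, known from photoreceptor discs, had 6.65 ± 1.12 TPM, Tspan6 had 5.10 ± 0.367, Tspan5 had 3.32 ± 0.179, Tspan17 had 1.84 ± 0.360 and Tspan4 had 1.60 ± 0.557 (SD, n = 3 each).

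**Figure D2:**
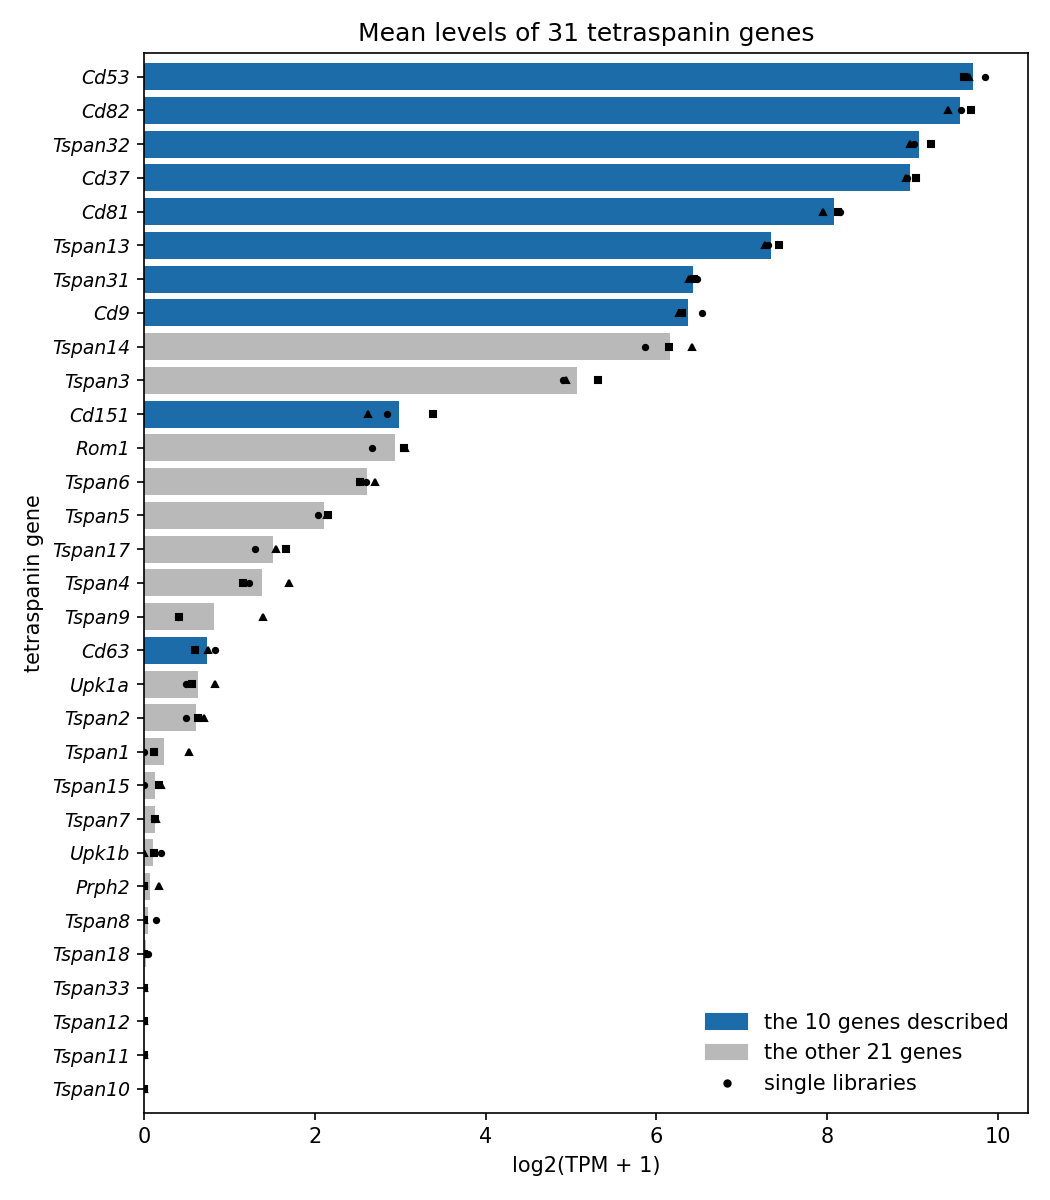
Bars show the mean log2(TPM + 1) over 3 libraries for 31 tetraspanin genes, with black marks for single libraries (circle, square and triangle for libraries 1, 2 and 3). By their mean, 8 of the 10 genes described (blue) stand above all of the other 21 (grey), while Cd151 lies under Tspan14 and Tspan3, and Cd63 lies under Tspan9.

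Several of these genes are neighbours. Tspan32 and Cd81 lie 33.1 kb apart on chromosome 7, and both were abundant. No annotated gene lies wholly between them, but R74862, on the strand opposite to Cd81, covers bases 143021784 to 143053686. R74862 thus fills most of the gap and overlaps Cd81 over 948 bases, and it had 2.13 ± 0.797 TPM (SD, n = 3). Cd151 lies 3.77 kb from Tspan4, and both were low. Cd82 lies 84.6 kb from Tspan18, which had 0.03, 0 and 0 TPM in libraries 1, 2 and 3.

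The known partners of tetraspanins were measured from a list of 20 genes, of which 16 were detected. The T cell adhesion receptor Cd2, reported to bind Cd53, had 1412 ± 109 TPM (SD, n = 3). The leukocyte integrin chains Itgb2, Itgal and Itga4 had 532 ± 115, 191 ± 63.9 and 156 ± 34.1 TPM (SD, n = 3 each). Cd4, which associates with Cd81 and Cd82 in human T cells, had 361, 511 and 492 TPM in libraries 1, 2 and 3. Itgb1 and Itga6, chains of a laminin receptor that binds Cd151, had 45.5 ± 7.89 and 38.8 ± 11.0 TPM, and the protease Adam10 had 43.3 ± 9.78 (SD, n = 3 each). The EWI proteins Igsf8 and Ptgfrn, direct partners of Cd9 and Cd81, were low at 2.03 ± 0.904 and 0.66 ± 0.113 TPM (SD, n = 3 each). The complement receptor Cr2 had the largest fold between libraries among the partner genes that passed the test described below, 3.34, with 3.86, 2.76 and 13.6 TPM in libraries 1, 2 and 3. Cr2 is among the 10 B cell genes, whose sum was also highest in library 3.

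Of 14 listed endosome and exosome genes 12 were detected, while Cd63 was under 1 TPM in every library of the main table. Sdcbp, the exosome adaptor syntenin that binds Cd63, had 240.5, 251 and 258 TPM in libraries 1, 2 and 3. Rab27a had 62.1 ± 11.3 TPM, Tsg101 had 60.2 ± 5.27, Lamp2 had 53.8 ± 5.29 and Lamp1 had 10.7 ± 1.36 (SD, n = 3 each). Rab27b and Smpd3 were at 0 in all libraries, and Chmp4b was the lowest detected gene with 4.28, 1.92 and 1.67 TPM.

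The libraries were then compared for each gene with a chi-square test of homogeneity on rounded expected counts against library totals scaled by TMM factors, with Benjamini-Hochberg adjustment over 13071 genes of 30 or more counts. Cd63 had too few counts, so 9 of the 10 genes were tested and 8 passed an adjusted p of 0.05. Over all genes 54.3% passed, and of 2722 protein-coding genes at 50 TPM or more 2341 did. The 8 that passed all had means above 50 TPM. Without library 1, 5 of the 10 genes passed (Cd9, Cd37 and Tspan31 no longer did), and 2142 of all 12273 genes tested did, against 7099 of 13071 with all libraries. The 8 were Cd53 with an adjusted p of 1.49e-220, Cd82 with 7.85e-90, Cd81 with 5.30e-38, Tspan32 with 4.03e-25, Cd37 with 1.01e-19, Cd9 with 1.71e-15, Tspan13 with 1.65e-12 and Tspan31 with 7.40e-13. Cd151 had an adjusted p of 0.347. The highest library exceeded the lowest by 1.24-fold for Cd37 and for Tspan32, by 1.27-fold for Tspan13, by 1.38-fold for Cd82, by 1.40-fold for Tspan31, by 1.43-fold for Cd81, by 1.49-fold for Cd9 and by 1.51-fold for Cd53. One of the 10 genes (Cd53) passed the test with at least 1.5-fold between libraries, against 25.1% of all tested genes. In TPM the coefficient of variation over libraries had a median of 9.17% for the 9 detected genes, against 17.5% for detected protein-coding genes and 11.7% for those of 50 TPM or more.

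By scaled counts library 1 was the highest for all 9 tested genes. For Cd53 library 1 exceeded library 2 by 1.51-fold (95% interval 1.47 to 1.55) and library 3 by 1.42-fold (1.38 to 1.46). For Cd9 these ratios were 1.49 (1.33 to 1.66) and 1.49 (1.33 to 1.68). All 8 genes that passed the test were highest in library 1, while over all tested genes 24% both passed and were highest there. Of 2722 protein-coding genes at 50 TPM or more, 1572 both passed and were highest there. Of protein-coding genes at 50 TPM or more, 63.8% were highest in library 1. TPM gave another order: 5 of the 10 genes were highest in library 1 and 5 in library 2, where TPM divides counts by length and by the sum over all genes.

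Gene length moved with this difference. In the bins of gene length that hold the 9 tested genes (transcript lengths of 1140.2 to 1922 bases, weighted by use), the median gene of 300 or more counts was itself higher in library 1, by 0.05 to 0.25 on the log2 scale relative to the mean of the libraries. When totals were scaled within 20 bins of gene length, 8 genes still passed, against 44% of all genes. Of 2722 protein-coding genes at 50 TPM or more, 1741 passed with this scaling. The ratio of highest to lowest library then shrank to 1.40-fold for Cd53, 1.21-fold for Cd82 and 1.10-fold for Cd37, and 7 of 9 genes were highest in library 1. Of these, 6 also passed the test, while over all tested genes 16.4% both passed and were highest in library 1. Of the 2722 protein-coding genes at 50 TPM or more, 810 did both. Highest in library 1, whether passing or not, were then 34.9% of all tested genes and 43.7% of protein-coding genes at 50 TPM or more. Tspan32 and Cd37 were then highest in library 2.

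**Figure D3:**
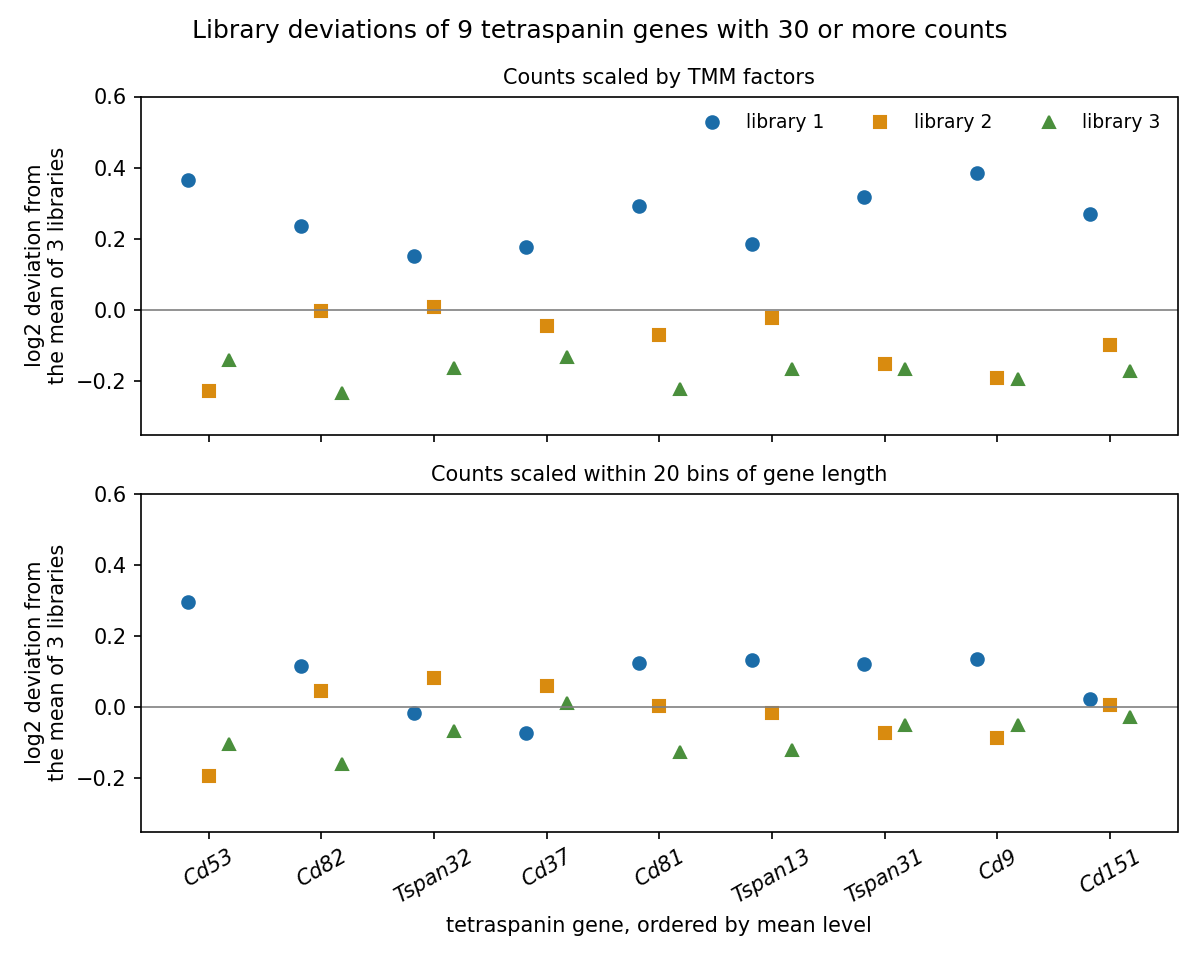
Deviation of each library from the mean of the 3 libraries, in log2 of scaled counts, for the 9 genes with 30 or more counts. In the upper panel (TMM scaling) library 1 is the highest for every gene, from 0.15 for Tspan32 to 0.38 for Cd9, and in the lower panel (scaling within length bins) only Cd53 stays above 0.2.

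The lists around the 10 genes held genes highest and genes lowest in library 1. Of the other tetraspanins 8 were tested and 3 passed (Tspan14, Tspan3 and Tspan6), with Tspan6 highest in library 1, Tspan3 in library 2 and Tspan14 in library 3. Of 18 tested partner genes 11 passed. Cd2 and Rac1 were highest in library 1, while the integrin chains Itgal, Itga4 and Itgb2 were lowest there, with 1.68-fold, 1.35-fold and 1.20-fold between the highest and the lowest library. Of 12 tested endosome and exosome genes 11 passed. Of these, Sdcbp, Tsg101, Vps4a, Vps4b, Lamp1, Scarb2 and Chmp4b were highest in library 1. Pdcd6ip, Hgs and Rab27a were lowest there, and Ap3b1 was highest in library 2. The median deviation of library 1 on the log2 scale was 0.27 for the 10 genes (9 tested) and -0.11 for the partners. It was 0.14 for the tested endosome and exosome genes and 0.11 for the tested other tetraspanins. For the 9 T cell markers it was 0.22 and for the 9 regulatory T cell markers 0.03. All tested protein-coding genes of 50 TPM or more had a median of 0.14.

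Genes with nearly the same level and library pattern were found by the distance of log2(TPM + 1) over the 3 libraries among protein-coding genes, and the nearest 2 are named. For Cd53 these were the ribosome-associated gene Naca at 935, 755 and 801 TPM and Rpl11 at 927, 753 and 815 TPM. For Cd82 they were Cnn2 and Ppp1ca, for Tspan32 they were Lars2 and Sat1, for Cd37 Pdia3 and Arl6ip1, and for Cd81 Cope and Psmb2. For Tspan13 they were Tbrg1 and Crbn, for Tspan31 Thy1 and Bud31, for Cd9 Rtraf and Snrnp27, for Cd151 Atg9a and Myl4, and for Cd63 Homer3 and Gm42688. Between 9 and 124 genes lay within a distance of 0.25 of each gene, so these names describe similar numbers in 3 libraries and nothing more.

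Transcript use differed among the 10 genes. Shares below are percentages of a gene's TPM taken by 1 transcript. Cd53 has a single annotated transcript. One transcript also dominated Cd9 (Cd9-201, 99.4% ± 0.403), Tspan13 (Tspan13-201, 99.1% ± 0.118) and Cd81 (Cd81-201, 97.6% ± 0.756), and Tspan31-201 took 86.8% ± 4.49 (SD, n = 3 each). Retained-intron transcripts took the remaining 13.2% of Tspan31. The second transcript table, made by another method from the same reads, gave a retained-intron transcript of Cd9, Cd9-203, 13.2% ± 3.50 (SD, n = 3), against 0.623% ± 0.403 in the main table. That share of Cd9 therefore depends on the table.

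Cd82 was spread over 3 transcripts with 1 coding sequence of 798 bases. Cd82-201 took 42.8%, 38.3% and 46.6% in libraries 1, 2 and 3, Cd82-205 took 32.6%, 38.7% and 31.5%, and Cd82-202 took 23.2%, 20.1% and 18.8%. Together they made 97.5% ± 0.889 (SD, n = 3) of the gene, so the differences lie outside the coding sequence. Cd82-205 starts upstream, at base 93462946 of chromosome 2, while Cd82-201 and Cd82-202 start at 93462502 and 93462411 on the same strand. An untranslated exon of 76 bases (chr2:93443369-93443444) is part of Cd82-201 and Cd82-205 and absent from Cd82-202. Transcripts with it took 76.8% ± 1.38 in the main table and 75.6% ± 2.17 in the second one (SD, n = 3 each). The upstream start took 34.3% ± 3.89 and 35.1% ± 3.07, so both tables gave it about the same share.

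The RNA of Tspan32 was divided over coding and non-coding transcripts. Tspan32-203 led with 30.9%, 36.8% and 37.4% in libraries 1, 2 and 3, followed by the retained-intron transcript Tspan32-207 with 24.2%, 21.3% and 20.8% and by Tspan32-201 with 18.9%, 21.9% and 23.1%. Tspan32-202 took 10.1% ± 2.22 (SD, n = 3). Retained-intron transcripts took 27.6% ± 1.60 of Tspan32 in the main table and 33.5% ± 1.27 in the second one (SD, n = 3 each). Among 6305 detected protein-coding genes with such a transcript the median was 14.5%, and 71.3% of them lay below Tspan32. Its coding transcripts differ in several ways, with 201 codons in Tspan32-203, 256 in Tspan32-201 and 229 in Tspan32-202. One difference is an exon of 84 bases, printed here because Tspan32-201 and Tspan32-202 hold it and the leading Tspan32-203 skips it. It lies at chr7:143017201-143017284 on the plus strand of mm10 and adds 28 codons in frame.

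Tspan32 exon: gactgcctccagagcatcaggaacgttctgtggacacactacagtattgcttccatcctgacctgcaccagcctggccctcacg

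The 4 annotated transcripts with this exon include Tspan32-201 and Tspan32-202, and the 5 that skip it include Tspan32-203. Of the TPM of both kinds, skipping took 53.5%, 56.8% and 55.7% in libraries 1, 2 and 3, and 53.7% ± 0.551 (SD, n = 3) in the second table. Skipping thus took slightly more than inclusion in every library and in both tables.

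Cd37 was led by Cd37-202 with 68.9% ± 2.65, which encodes 281 codons, and Cd37-208 followed with 13.7% ± 1.52 (SD, n = 3 each). Cd37-208 has 2 exons and 180 annotated coding bases, which end before the signature of the long loop. Cd151 had too few counts for stable shares: Cd151-202 took 47.7%, 0% and 28.9% in libraries 1, 2 and 3, and the retained-intron transcript Cd151-208 took 14.7%, 41.6% and 26.2%. The leading transcript of Cd63, Cd63-202, took 89.4% in the main table and 40.9% in the second one, from under 10 counts a library in the main table.

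**Figure D4:**
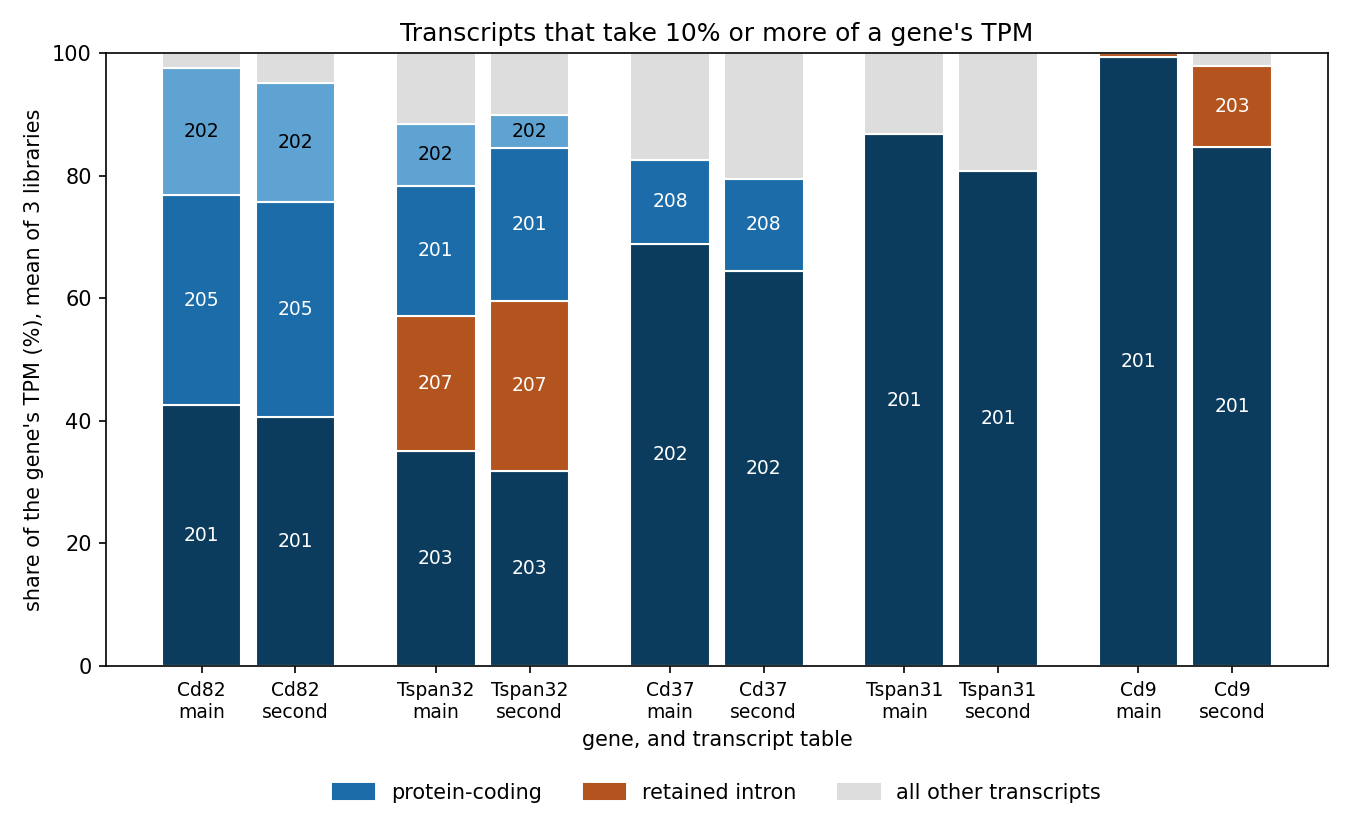
Stacked bars give the mean share of each gene's TPM over 3 libraries for transcripts of 10% or more in either table (numbers are the last part of the transcript name), in the main and the second transcript table. Coding transcripts are blue, retained introns orange and the rest grey, and among the 5 genes drawn the tables differ most for Cd9, where Cd9-203 takes 0.623% in the main table and 13.2% in the second one.

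The windows just upstream of the start sites of the most abundant genes with a window free of annotated exons of the gene are shown for Cd53, Cd82 and Tspan32, from RefSeq on GRCm38.p6. They are chr3:106790150-106790399 (minus strand), chr2:93462503-93462705 (minus strand, upstream of Cd82-201) and chr7:143004796-143005045 (plus strand, upstream of Tspan32-201). Tspan32-201 starts at base 143005046. The leading Tspan32-203 starts downstream of it, at 143005685, and has no window here. Capitals mark matches on either strand to GGGCGG, the box that Sp factors bind, or to TGTGGT, a core site of Runx factors.

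Cd53 upstream window: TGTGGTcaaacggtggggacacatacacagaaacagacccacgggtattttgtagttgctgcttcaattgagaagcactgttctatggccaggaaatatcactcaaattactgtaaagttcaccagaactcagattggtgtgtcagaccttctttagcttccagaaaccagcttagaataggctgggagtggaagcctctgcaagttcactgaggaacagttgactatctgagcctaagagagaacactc
Cd82 upstream window: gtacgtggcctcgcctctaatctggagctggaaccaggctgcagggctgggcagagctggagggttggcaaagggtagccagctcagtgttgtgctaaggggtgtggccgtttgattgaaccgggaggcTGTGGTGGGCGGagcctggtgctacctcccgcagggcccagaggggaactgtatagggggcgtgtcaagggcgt
Tspan32 upstream window: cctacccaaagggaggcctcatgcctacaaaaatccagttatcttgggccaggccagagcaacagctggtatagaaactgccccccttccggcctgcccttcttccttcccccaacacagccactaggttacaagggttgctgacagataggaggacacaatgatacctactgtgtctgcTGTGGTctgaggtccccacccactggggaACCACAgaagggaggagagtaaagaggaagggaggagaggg

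Windows of 250 bases before each RefSeq start were searched on both strands for CCGGAAGT (an Ets site), GGGCGG (the GC box), TATAAA (the TATA box), GTAAACA (a forkhead site) and TGTGGT (the Runx core). These occur in 2.88%, 32.7%, 12.4%, 3.17% and 14.0% of 32851 such windows in the mouse. Cd53 has 1 TGTGGT at its far end, Tspan32 has 2 (1 on each strand), and the Cd82 window has TGTGGT directly followed by GGGCGG. The window upstream of Cd82-205 holds 1 GGGCGG and 14 CpG. None of the windows of the 10 genes holds CCGGAAGT, TATAAA or GTAAACA. In CpG count Cd53 had 2 and Tspan32 1, against a median of 6 over all windows, while Tspan13 had 21 and Cd9 and Cd81 had 16 each. A match describes the letters of the window only.

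The levels were also read from other estimates and tables. Posterior mean TPM of the main gene table was lower than TPM for all of the 10 genes but Cd63 and Cd151. Its median ratio to TPM was 0.806 over the 10 genes and 0.848 over 10120 detected protein-coding genes. The second transcript table gave lower TPM, with a median ratio to the main table of 0.528 over the 10 genes and 0.551 over 10120 detected protein-coding genes. The order of the 10 genes was the same except that Cd9 (50.6 ± 3.13 TPM) and Tspan31 (47.9 ± 2.53 TPM) changed places (SD, n = 3 each), whose ranges overlapped here too. There, 8 of the 10 genes were highest in library 2 and 2 in library 1. In counts per gene none of the 10 genes other than Cd63 differed from the main table by over 1.5-fold in all 3 libraries. Over all genes compared, 31% of 10091 did so in the M4 gene table and 6.16% of 12163 in the second transcript table. Cd63 was below the level needed for that comparison and was not compared. In the M4 gene table the largest centred difference among those compared was that of Cd53. Its ratio to the main table was 0.72 relative to that of the median gene. By the same centred ratio Cd9 and Cd37 were at 1.22 and 1.17.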

How the data were processed

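The authors deposited 4 tables for each of 3 libraries. Per the deposited readme, the gene table and a transcript table came from an alignment to the transcriptome of mm10 with GENCODE M21, and they hold expected counts and TPM per the file headers. The transcript table gives the percent of the gene's TPM for each transcript, per the file headers. Credibility bounds of TPM, listed in the gene table as deposited and treated as a signal, were not used, while its posterior mean TPM served as an alternative. Estimated counts and TPM per transcript stand in a second transcript table, which the deposited readme derives from the reads and an M21 index. Whole-number counts per gene for the older M4 annotation stand in a separate table, also per the deposited readme. Column names are those that RSEM and kallisto write. No source used here names tools, versions or the strand setting.

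Symbols were taken from the second table, and where a symbol had several gene identifiers that of the higher mean TPM was kept. Entries other than mouse genes (0.117%, 0.124% and 0.135% of counts) were left out of totals. Expected counts were rounded, scaled by TMM (edgeR 4.0.16 in R 4.3.3, with DESeq2 1.42.0 size factors as an alternative) and tested for each gene of 30 or more counts by chi-square homogeneity with Benjamini-Hochberg adjustment. The test assumes counting noise. No pair of libraries agreed within sampling noise. The replicates are technical per the labels, so p-values compare these libraries only. They depend on the counts of a gene as well as on its fold, and do not rank the genes by spread. Intervals are 95% exact binomial intervals and cover counting error only, as reads are not independent molecules. Alternatives were other scalings, count minimums, detection limits, tables and leaving out each library. Coding and protein comparisons used Biopython 1.88 on M21 transcripts (global alignment, BLOSUM62), and other steps Python 3.11.15 with numpy 2.4.6, scipy 1.17.1, pandas 2.3.3 and matplotlib 3.10.9.

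The 10 genes and all lists were chosen with earlier results of these data known. Named are the 10 genes, list genes detected at 1 TPM in every library or at 0, the highest and defining markers, transcripts of 10% or more in either table and the 2 nearest genes. Ptgfrn, Tspan9, Tspan18 and the genes that overlap the 10 were named after their values were seen.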

Additional observations from a re-analysis of the deposited data

How the results depend on the processing

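Scaling by DESeq2 size factors, total counts or length bins, count minimums of 1 or 300, the M4 counts and the counts of the second transcript table each left the same 8 of the 10 genes past the spread test. Leaving out 1 library gave 5 to 8 of them and 2142 to 5980 genes overall. The low end came without library 1, where Cd9, Cd37 and Tspan31 no longer passed. Between 9 and 10 of the 10 genes were detected under other limits, tables or libraries. The leading transcript was the same for 9 or 10 of the 10 genes, with Cd63 and Cd151 as the exceptions. Under scaling within length bins the sign changed for Cd37 in libraries 1, 2 and 3 against the others (-0.11, 0.090 and 0.017 on the log2 scale), for Tspan32 in library 1 (-0.024) and for Cd81 and Cd82 in library 2 (0.0056 and 0.066). Under total counts it changed in library 2 for Cd37 (0.0070), Cd82 (0.070) and Tspan13 (0.042), and under the M4 counts for Cd82 in library 2 (0.0055). For Cd151, which did not pass the test, it changed under the M4 counts in libraries 1 and 3 (-0.088 and 0.105). Under length bins it changed for Cd151 in library 2 (0.0074). The cause was not tested. Of 150 such library differences 137 kept sign and call. Depth limits Cd63 and Cd151, whose counts are too few for transcript shares or small differences. No paired analysis was possible because the libraries form 1 group.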
